A study of Mus musculus with 12 samples.

Results

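The enzymes that make retinoic acid from vitamin A were examined in femoral head cartilage of TS-4/5∆cat mice. The 9 genes, Aldh1a1, Aldh1a2, Aldh1a3, Aldh1a7, Rdh5, Rdh10, Rdh11, Adh1 and Adh7, were found by their gene symbol on the array, where 13 of 46632 probes carried one of them and the other probes covered the rest of 34509 symbols. All mice carried in-frame deletions of the exons encoding the catalytic domains of Adamts4 and Adamts5, so no wildtype cartilage was measured. Hips from 21-day-old mice were kept 4 to a well and left untreated, treated with 10 ng/mL IL-1α or treated with 10 µM retinoic acid for 3 days. Each treatment had 4 arrays, 2 from the Donut line in batch 1 and 2 from the Gertrude line in batch 2, so that line and batch cannot be told apart. According to the labels the hips spent 24 h in medium with 10% FBS, which itself contains retinol, before treatment, whereas the methods describe serum-free culture. The methods describe separate, unpooled mice for each treatment, fewer than its 4 arrays, and the replicates named in the labels and in the design text are also fewer, so which arrays came from separate mice is not settled. The p-values measure only the spread between these samples, which may be technical.

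Retinoic acid is made in a pair of oxidation steps. Retinol is first converted to retinal, reversibly, by retinol dehydrogenases such as Rdh10 and by the cytosolic alcohol dehydrogenases Adh1 and Adh7. Retinal is then converted to retinoic acid, irreversibly, by the retinaldehyde dehydrogenases Aldh1a1, Aldh1a2 and Aldh1a3, while enzymes of the Cyp26 family break retinoic acid down. In growing cartilage, retinoic acid receptor signalling is known to restrain chondrocyte differentiation and to drive loss of the cartilage matrix when retinoic acid is added.

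The 300-base promoter windows of Rdh5, Adh1 and Adh7 are shown so that their values can be read beside the sequence. They are the 3 genes of the first oxidation step that were called lower with a treatment, Rdh5 with retinoic acid, Adh1 with IL-1α and Adh7 with both. Each window runs from 250 bases before to 50 bases after the RefSeq gene start on GRCm38.p6, in the direction of the gene, and capitals mark the motifs that were found. Rdh5 lies on the minus strand (chr10:128919248-128919547), and Adh1 (chr3:138277335-138277634) and Adh7 (chr3:138217523-138217822) lie on the plus strand as members of one alcohol dehydrogenase cluster.
Rdh5: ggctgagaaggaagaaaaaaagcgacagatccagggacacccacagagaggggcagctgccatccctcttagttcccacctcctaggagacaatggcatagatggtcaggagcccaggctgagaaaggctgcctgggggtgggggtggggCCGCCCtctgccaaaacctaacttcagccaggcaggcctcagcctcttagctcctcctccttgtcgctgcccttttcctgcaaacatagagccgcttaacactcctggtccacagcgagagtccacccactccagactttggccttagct
Adh1: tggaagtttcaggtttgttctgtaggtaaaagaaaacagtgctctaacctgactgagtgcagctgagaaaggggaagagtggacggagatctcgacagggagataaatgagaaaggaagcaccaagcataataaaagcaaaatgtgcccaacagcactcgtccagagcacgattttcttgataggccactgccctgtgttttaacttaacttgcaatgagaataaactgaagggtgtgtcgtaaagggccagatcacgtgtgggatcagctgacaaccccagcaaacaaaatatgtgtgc
Adh7: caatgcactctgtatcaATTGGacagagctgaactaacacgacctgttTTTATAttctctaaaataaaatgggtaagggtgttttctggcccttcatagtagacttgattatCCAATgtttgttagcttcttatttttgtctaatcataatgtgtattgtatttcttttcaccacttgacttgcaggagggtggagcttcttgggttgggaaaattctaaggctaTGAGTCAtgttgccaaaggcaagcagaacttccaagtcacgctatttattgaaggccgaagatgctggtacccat
The capitals are GGGCGG in Rdh5 at -100, and, in Adh7, CCAAT at -233 and -138, TATAAA at -202 and the AP-1 motif TGAGTCA at -25, with positions counted from the gene start. Both strands were searched, and a match on the opposite strand is shown as it reads on the gene's strand. The Adh1 window held none of the motifs searched. Half-sites of the retinoic acid receptor in tandem (each spelled AGGTCA, its variant AGTTCA, the variant GGGTCA or the variant GGTTCA, with a gap of 1, 2 or 5 bases), the kappaB motif and the C/EBP motif TTGCGCAA were in 0 of the 9 windows that RefSeq gave for 7 of the 9 genes. Such motifs are rare at this length, since the tandem half-sites were in 0.222%, 0.268% and 0.0974% of 32851 promoter windows for gaps of 1, 2 and 5, TTGCGCAA in 0.183% and kappaB in 4.51%. TGAGTCA was in 5.2% of those windows, GGGCGG in 35.7%, CCAAT in 37.4% and TATAAA in 13.6%.

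The 12 arrays had median raw intensities of 34.3 to 63.3 and detected 13786 to 14965 probes in batch 1 and 16732 to 19485 in batch 2. Intensities are given here on a log2 scale after background correction and quantile normalization, where the lowest detected probe of an array was at 4.86 to 5.48 and the brightest at 14.24. Of 4 known target genes of retinoic acid, Cyp26a1, Cyp26b1, Rarb and Dhrs3, 4 rose with it. Of 4 known target genes of IL-1, Nos2 and Lcn2 rose with IL-1α. Saa3 and Mmp3 had differences of 0.79 and 0.64 that did not pass the test (limma adjusted p = 0.37 and 0.085). Both were already near the brightest level untreated, at means of 13.20 and 13.32, and stood at 13.99 and 13.96 with IL-1α. Little room for a rise was thus left on this scale. The retinoic acid hydroxylase Cyp26a1 was undetected on all untreated arrays and at least 19.2-fold higher with retinoic acid, and IL-1α took Nos2, the inducible nitric oxide synthase, from no detection on any untreated array to a level at least 14.1-fold above it. These bounds set the mean of the bright group against the lowest detected signal, or the probe's own where higher, on each array of the other group.

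Of the 13 probes, 6 were detected on at least 4 arrays and were tested, 1 each for Aldh1a3, Rdh5, Rdh10, Rdh11, Adh1 and Adh7. Rdh5, Rdh11 and Adh7 were detected on all 12 arrays. Adh1 was detected on 10, missing only on both IL-1α arrays of batch 1. Aldh1a3 and Rdh10 were detected on all 6 arrays of batch 2 and on 0 of 6 in batch 1. Aldh1a1 was detected on 3 arrays, Aldh1a2 on 2 and Aldh1a7 on 0, so these genes of the second step were not tested. Second probes for Rdh5 (ILMN_1253251) and Adh7 (ILMN_1238226) and a further pair for Aldh1a3 (ILMN_1235590 and ILMN_2761436) were detected on 0 arrays, and the values of those genes therefore rest on 1 probe each.

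**Figure D1:**
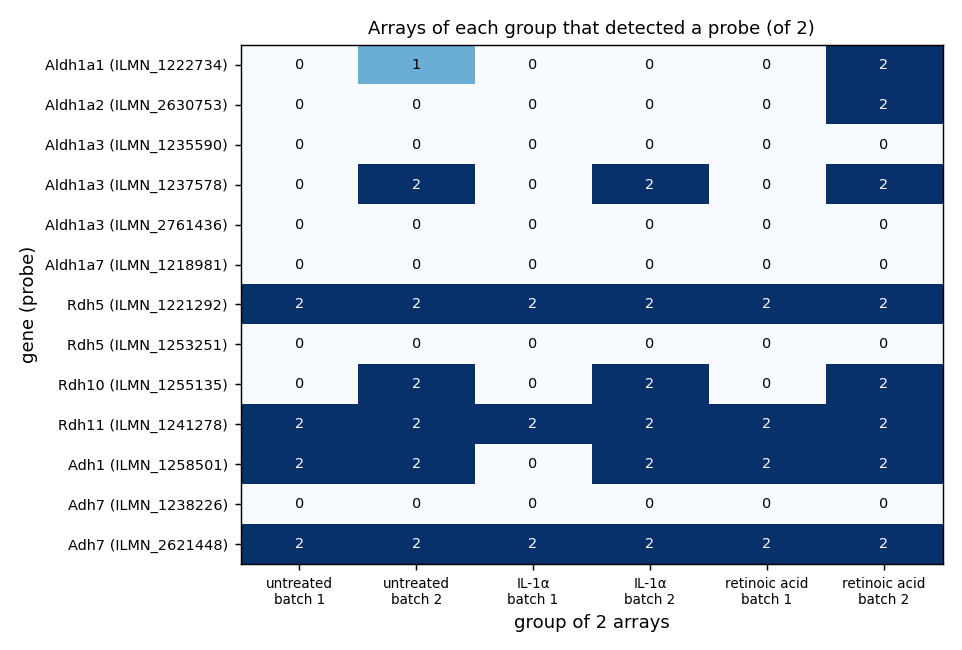
Each cell gives how many of the 2 arrays of a group (columns, treatment and batch) detected a probe (rows, gene and probe) at a detection p under 0.05. Only Rdh5, Rdh11 and Adh7 had a probe detected on all 12 arrays, and Aldh1a3 and Rdh10 were detected in batch 2 alone.

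With retinoic acid, 3 of the 6 tested genes fell against untreated cartilage and 0 rose. Rdh5 fell by 1.04 and Adh7 by 0.63 on the log2 scale over both batches, and Aldh1a3 was also called lower, with a difference of −1.25 in batch 2, the batch in which it was detected. Over all 18200 probes tested, limma called 18.2% higher and 17.1% lower at an adjusted p under 0.05, and the median difference was −0.58 over the 6 genes against 0.02 over all probes. In whole cartilage, fewer cells of a type and less RNA per cell cannot be told apart. When arrays were instead scaled to a common median, the median difference of all probes moved to 0.14, and Rdh5, Aldh1a3 and Adh7 were at −0.89, −0.83 and −0.47 on that scale. The share of calls that were higher was then 65.6% in place of 51.6%.

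With IL-1α, 2 genes rose and 3 fell against untreated cartilage, while Rdh10 did not pass the test. Rdh5 and Rdh11 were the genes that rose, by less than 1.5-fold each, and Adh1 fell by 1.35 on the log2 scale, with both IL-1α arrays of batch 1 below detection. Adh7 and Aldh1a3 also fell. Among all probes 15.2% were called higher and 14.1% lower. The median difference was −0.34 over the 6 genes and 0.02 over all probes.

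Between the treatments, Adh1 was higher and Rdh5 was lower with retinoic acid than with IL-1α. The other 4 genes did not pass the test. Of all probes 15.2% were called higher and 15.8% lower with retinoic acid, so 1 gene of 6 in each direction is close to this background. Higher values made up 49% of these calls, and 65.6% when arrays were scaled to a common median. All 3 comparisons were drawn from the same 12 arrays and share groups.

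**Figure D2:**
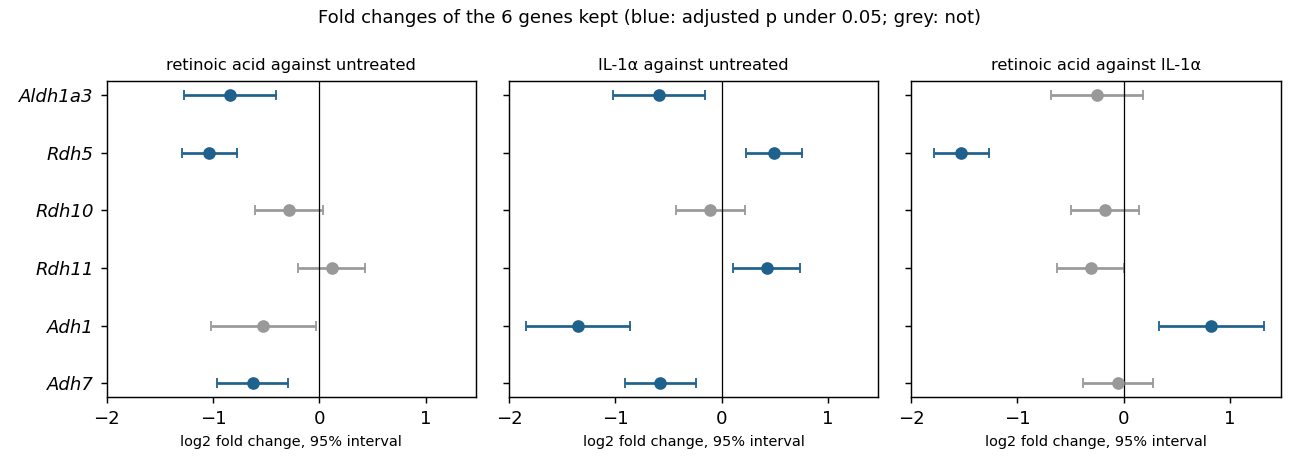
Log2 fold changes of the 6 tested genes (rows) with 95% confidence intervals from limma in the 3 comparisons (panels), n = 4 arrays per treatment, blue where the adjusted p was under 0.05. Rdh5 lies at −1.04 with retinoic acid. Adh1 lies at −1.35 with IL-1α, where both IL-1α arrays of batch 1 were below detection. The values of Aldh1a3 and Rdh10 include 6 arrays of batch 1 below detection. Neither they nor the Adh1 values with IL-1α in the comparison are measured sizes.

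**Figure D3:**
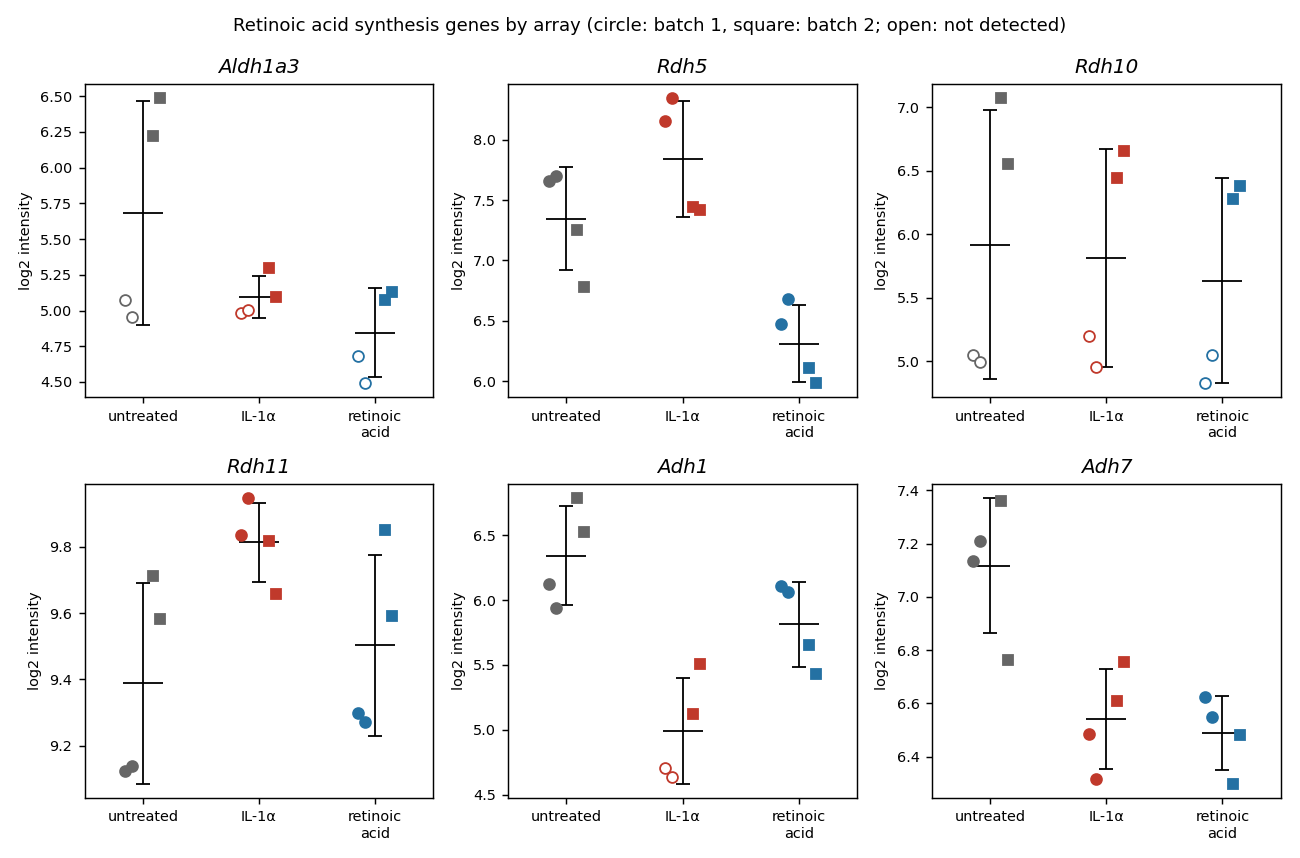
Log2 intensity (vertical axes, with a different range in each panel) of the 6 tested genes on every array, circles for batch 1, squares for batch 2 and open symbols where the probe was not detected, with bars for the mean ± SD of 4 arrays. All 4 retinoic acid arrays lie below all untreated arrays for Rdh5 and Adh7, where 16.9% of all tested probes had no overlap between these groups. Batch 2 lies above batch 1 in every treatment for Rdh10 and Aldh1a3, but every batch 1 value of both was below detection.

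Adh1, the class I alcohol dehydrogenase, oxidises retinol as well as ethanol. In untreated cartilage its probe (ILMN_1258501) had log2 intensities of 6.13 and 5.94 in batch 1 and of 6.79 and 6.52 in batch 2. With IL-1α the values were 4.70 and 4.63 in batch 1, where it was not detected, and 5.12 and 5.51 in batch 2. With retinoic acid it read 6.11 and 6.06 in batch 1 against 5.66 and 5.43 in batch 2. All IL-1α arrays were thus below all untreated arrays, and the retinoic acid arrays overlapped with both other groups. Of all tested probes, 13.5% had no overlap between IL-1α and untreated arrays.
The mean fell from 6.34 ± 0.38 (SD, n = 4 arrays) untreated to 4.99 ± 0.41 (SD, n = 4) with IL-1α, a difference of −1.35 ± 0.23 (SE, limma adjusted p = 0.00078). Because both IL-1α arrays of batch 1 were below detection, the size there has only a bound, at least 1.48-fold lower than untreated. In batch 2 the measured difference was −1.34.
With retinoic acid the mean was 5.82 ± 0.33 (SD, n = 4), which did not pass the test against untreated cartilage (−0.53 ± 0.23, SE, limma adjusted p = 0.090). The batches differed in this comparison, with a difference of 0.05 in batch 1 and −1.11 in batch 2 (difference between batches −1.16 ± 0.23, SE, limma adjusted p = 0.013), where 2.86% of all probes differed between batches. Without either batch 1 retinoic acid array the pooled difference passed (−0.71, limma adjusted p = 0.037, without replicate 1 and −0.74, adjusted p = 0.024, without replicate 2). The difference between batches no longer passed without retinoic acid replicate 1 or untreated replicate 2 of batch 1 or retinoic acid replicate 2 of batch 2 (−1.14, −1.07 and −1.05, limma adjusted p = 0.059, 0.055 and 0.080).
Against IL-1α, retinoic acid gave higher Adh1 by 0.82 ± 0.23 (SE, limma adjusted p = 0.014), with 1.42 in batch 1 and 0.23 in batch 2. This too differed between batches (−1.19 ± 0.23, SE, limma adjusted p = 0.0061), as did 8.76% of all probes, and in batch 1, where IL-1α was below detection, only a bound of at least 1.54-fold higher can be given. The difference between batches was smaller and did not pass under median scaling (−0.37, limma adjusted p = 0.40) or with each batch normalized on its own (−0.63, adjusted p = 0.12). The call was lost without any one of the retinoic acid or IL-1α arrays of batch 1 (0.61 to 0.73, limma adjusted p = 0.051 to 0.064), within batch 2 alone (adjusted p = 0.43), with each batch normalized on its own (0.60, adjusted p = 0.057) and with no filter (adjusted p = 0.11).

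Adh7, the class IV alcohol dehydrogenase, has a high activity toward retinol. Its detected probe (ILMN_2621448) had log2 intensities of 7.14 and 7.21 in batch 1 against 7.36 and 6.76 in batch 2 without treatment. It stood at 6.49 and 6.32 in batch 1 against 6.61 and 6.76 in batch 2 with IL-1α. With retinoic acid it stood at 6.63 and 6.55 in batch 1 against 6.30 and 6.48 in batch 2. Untreated arrays were all above the others, although untreated replicate 2 of batch 2 was above the highest IL-1α array by less than 0.01. Of all tested probes, 16.9% had no overlap between retinoic acid and untreated arrays, and 13.5% had none between IL-1α and untreated arrays.
Adh7 fell from 7.12 ± 0.25 (SD, n = 4) to 6.49 ± 0.14 (SD, n = 4) with retinoic acid (−0.63 ± 0.15, SE, limma adjusted p = 0.0062) and to 6.54 ± 0.19 (SD, n = 4) with IL-1α (−0.57 ± 0.15, SE, limma adjusted p = 0.014). An exact permutation test of 4 arrays against 4, which shuffles arrays across batches, gave its smallest possible two-sided p of 0.0286 in both comparisons. The difference between the treatments was −0.05 (95% confidence interval −0.39 to 0.28), and its sign turned under median scaling and within batch 1 alone.
The IL-1α call was lost without replicate 2 of the untreated arrays of batch 1 (−0.52, limma adjusted p = 0.059), without replicate 2 of the IL-1α arrays of batch 1 (−0.47, adjusted p = 0.064) within batch 2 alone (−0.38, adjusted p = 0.25) and with no filter (adjusted p = 0.057). The retinoic acid call was kept without each array in turn, with adjusted p up to 0.031, and just missed under median scaling (−0.47, limma adjusted p = 0.051).

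Rdh5 encodes the 11-cis-retinol dehydrogenase, best known from the visual cycle of the eye. Its detected probe (ILMN_1221292) had log2 intensities of 7.66 and 7.70 in batch 1 and 7.25 and 6.78 in batch 2 in untreated cartilage. IL-1α arrays were at 8.15 and 8.35 in batch 1 and 7.44 and 7.42 in batch 2. Retinoic acid arrays were at 6.48 and 6.68 in batch 1 against 6.11 and 5.98 in batch 2. Every retinoic acid array was below every other array, and IL-1α arrays were above the untreated arrays of their own batch but not of both batches. Retinoic acid arrays had no overlap with untreated arrays in 16.9% of all tested probes, and none with IL-1α arrays in 17.7%.
The mean of 7.35 ± 0.43 (SD, n = 4) untreated fell to 6.31 ± 0.32 (SD, n = 4) with retinoic acid, 2.05-fold lower (−1.04 ± 0.12, SE, limma adjusted p = 2.1e-05, exact permutation p = 0.0286). The fall was −1.10 in batch 1 and −0.97 in batch 2, and the test of a difference between the batches did not pass (0.13 ± 0.24, SE, limma adjusted p = 0.87).
IL-1α raised the mean to 7.84 ± 0.48 (SD, n = 4), 1.41-fold (0.49 ± 0.12, SE, limma adjusted p = 0.0084, exact permutation p = 0.229). Unlike the fit, the permutation test takes no account of batch. The rise was 0.57 in batch 1 and 0.42 in batch 2, and within batch 2 alone it did not pass the test (limma adjusted p = 0.12). Retinoic acid against IL-1α gave −1.53 ± 0.12 (SE, limma adjusted p = 6.2e-07), with −1.67 in batch 1 and −1.38 in batch 2. All 3 Rdh5 calls were kept without each of the 12 arrays in turn.

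Rdh10, a membrane-bound retinol dehydrogenase that the embryo needs for retinoic acid synthesis, was detected in batch 2 alone (ILMN_1255135). There it had log2 intensities of 7.07 and 6.56 untreated, 6.44 and 6.65 with IL-1α and 6.27 and 6.38 with retinoic acid. In batch 1 the undetected values were between 4.83 and 5.19. In batch 2 the differences were −0.49 for retinoic acid and −0.27 for IL-1α against untreated, and −0.22 between the treatments, and none passed the test in that batch (limma adjusted p = 0.096, 0.40 and 0.47). None of the 3 comparisons passed over both batches, which average in values below detection, with −0.28 (95% confidence interval −0.60 to 0.04) for retinoic acid against untreated, −0.11 (−0.43 to 0.22) for IL-1α against untreated and −0.18 (−0.50 to 0.14) for retinoic acid against IL-1α. The IL-1α value turned sign without untreated replicate 1 of batch 2, the highest of all arrays (0.07, limma adjusted p = 0.72), and within batch 1 alone, and the value between the treatments turned sign under median scaling.

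Rdh11 encodes a retinal reductase of the endoplasmic reticulum, which mainly catalyses the return of retinal to retinol. Its probe (ILMN_1241278) had log2 intensities of 9.12 and 9.14 in batch 1 and 9.71 and 9.58 in batch 2 without treatment. They were 9.84 and 9.95 in batch 1 and 9.82 and 9.66 in batch 2 with IL-1α, and with retinoic acid 9.30 and 9.27 in batch 1 against 9.85 and 9.59 in batch 2. The IL-1α arrays of batch 1 stood above the other arrays of that batch, whereas the 3 treatments overlapped in batch 2.
Rdh11 rose from 9.39 ± 0.30 (SD, n = 4) to 9.81 ± 0.12 (SD, n = 4) with IL-1α (0.43 ± 0.15, SE, limma adjusted p = 0.043, exact permutation p = 0.0571), with 0.76 in batch 1 and 0.09 in batch 2. The test of that difference between batches missed the threshold (−0.67 ± 0.20, SE, limma adjusted p = 0.074). The rise no longer passed without any one untreated or IL-1α array of batch 1 (0.30 to 0.37, adjusted p = 0.14 to 0.18), without retinoic acid replicate 1 of batch 1 (0.43, adjusted p = 0.056) or without retinoic acid replicate 2 of batch 2 (0.43, adjusted p = 0.053). It was also lost within batch 2 alone (limma adjusted p = 0.72), under median scaling (0.56, adjusted p = 0.13) and with no filter (adjusted p = 0.11). Retinoic acid differed from untreated by 0.11 (95% confidence interval −0.20 to 0.43) and from IL-1α by −0.31 (−0.63 to 0.0043), and neither passed the test.

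Aldh1a3, a retinaldehyde dehydrogenase of the second step, had 1 probe detected in batch 2 alone (ILMN_1237578). Its log2 intensities in batch 2 were 6.22 and 6.49 untreated, 5.30 and 5.09 with IL-1α and 5.08 and 5.13 with retinoic acid. In batch 1 all 6 values were undetected, at 5.07 and 4.95 untreated, 4.98 and 5.00 with IL-1α and 4.68 and 4.49 with retinoic acid. Both untreated arrays of batch 2 thus stood above all other arrays.
In batch 2, where it was detected, the difference from untreated was −1.25 with retinoic acid and −1.16 with IL-1α. The treated arrays there, at 5.08 to 5.30, were close to their lowest detected signals of 5.02 to 5.07. The detection limit therefore also restricts these sizes. Fitted over both batches, Aldh1a3 was called lower with retinoic acid (limma adjusted p = 0.0053, exact permutation p = 0.171) and with IL-1α (limma adjusted p = 0.042, exact permutation p = 0.343). Unlike the fit, the permutation test takes no account of batch. The pooled differences of −0.84 and −0.59 average in the batch 1 values below detection and are not measured sizes. The IL-1α effect was called as different between the batches (limma adjusted p = 0.0083), as for 4.82% of all probes, but batch 1 was below detection in every group, so this is no measured difference between them.
The retinoic acid call was kept without each array in turn (limma adjusted p up to 0.026) and lost without batch and replicate in the model (adjusted p = 0.14). The IL-1α call was lost without any one of the 6 arrays of batch 2. Its value was then −0.48 and −0.37 without untreated replicates 1 and 2 (limma adjusted p = 0.13 and 0.18), −0.53 and −0.41 without IL-1α replicates 1 and 2 (adjusted p = 0.11 and 0.15), and −0.59 without either retinoic acid replicate (adjusted p = 0.0516 and 0.0502). It was also lost with no background correction (−0.38, limma adjusted p = 0.053), under median scaling (−0.70, adjusted p = 0.077), with an offset of 50 (−0.36, adjusted p = 0.065) and with no filter (adjusted p = 0.17).

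The other retinaldehyde dehydrogenases were near or below the limit of detection. Aldh1a1 (ILMN_1222734) had log2 intensities of 5.10 and 4.72 in batch 1 and 6.09 and 5.68 in batch 2 with retinoic acid, where it was detected on both batch 2 arrays. Its untreated values were 4.64 and 4.62 in batch 1 and 4.91 and 5.06 in batch 2, of which only the last was detected. With IL-1α it was undetected on all 4 arrays, at 4.58 and 4.53 in batch 1 against 4.82 and 4.70 in batch 2. Both retinoic acid arrays of batch 2 were therefore the highest of all, at least 1.79-fold above the IL-1α arrays of that batch. Its detection came almost only from the retinoic acid arrays of batch 2. A filter that Aldh1a1 passes is thus met through the group where it is high. No test of it is therefore read as a result.
Aldh1a2 (ILMN_2630753), the main retinaldehyde dehydrogenase of the early embryo, was detected only on the retinoic acid arrays of batch 2, at 5.28 and 5.05. It lay at 4.97 and 4.78 untreated and at 4.83 and 4.86 with IL-1α in that batch, and at 4.76 to 5.36 on the batch 1 arrays, all undetected. The batch 2 values give bounds of at least 1.16-fold over untreated and at least 1.09-fold over IL-1α. Aldh1a7 (ILMN_1218981), a relative of Aldh1a1 with little known activity toward retinal, was undetected on all 12 arrays, between 4.50 and 4.86. RefSeq lists the symbol Aldh1a2 also as an older name of Aldh1a1 and Aldh1a7 as one of Aldh1a2, and the table holds no probe sequences, so the identity of these probes rests on the array's symbols.

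The tests of a difference between batches called 1 of the 6 genes in each comparison. The gene was Adh1 for retinoic acid against untreated and against IL-1α, where 2.86% and 8.76% of all probes were called. For IL-1α against untreated it was Aldh1a3, which was below detection in batch 1, where 4.82% of all probes were called.

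**Figure D4:**
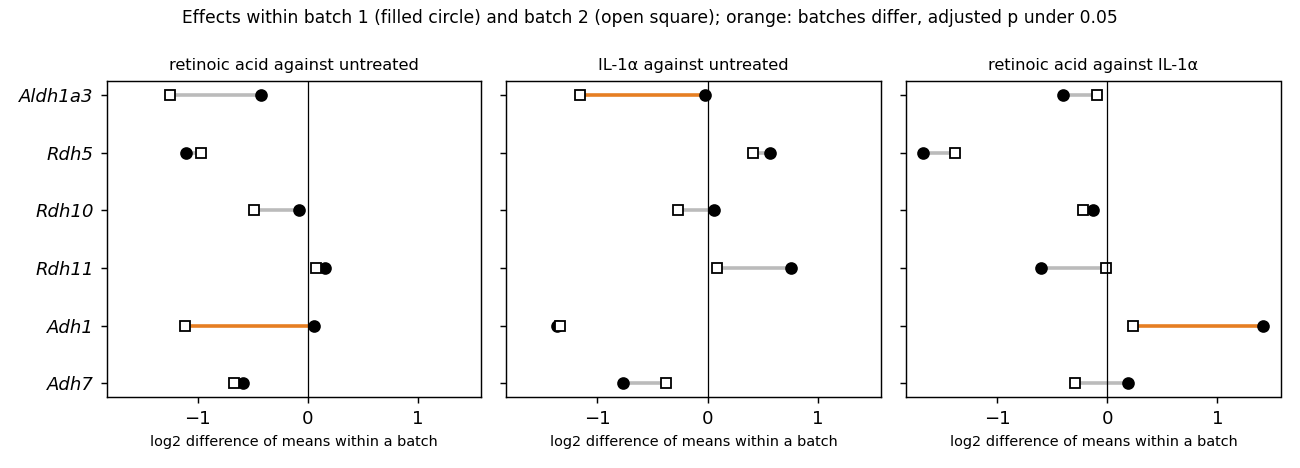
Log2 differences of group means within batch 1 (filled circles) and batch 2 (open squares), 2 arrays per group, for the 6 tested genes (rows) in the 3 comparisons (panels), with orange lines where the batches differed at an adjusted p under 0.05. Adh1 with retinoic acid against untreated was at 0.05 in batch 1 and −1.11 in batch 2, whereas Rdh5 was at −1.10 and −0.97.

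The batches also differed in level across all treatments, a comparison added after the data were seen. Rdh10 was higher in batch 2, where its 6 arrays were at 6.27 to 7.07, against 4.83 to 5.19 undetected in batch 1, a difference of at least 2.29-fold (limma adjusted p = 5.4e-09, exact permutation p = 0.00216, the smallest for 6 arrays against 6). Aldh1a3 was at least 1.14-fold higher in batch 2 (limma adjusted p = 0.00066), with 5.08 to 6.49 against 4.49 to 5.07, undetected in batch 1. This bound rests on the 2 untreated arrays of batch 2, at 6.22 and 6.49. The treated arrays of batch 2, at 5.08 to 5.30, were below the lowest detected signal of the treated batch 1 arrays (5.34 to 5.48). No difference between batches is thus shown for Aldh1a3 in treated cartilage. Rdh5 was lower in batch 2 by 0.67 ± 0.10 (SE, limma adjusted p = 2.3e-05) after quantile normalization, but 0.20 higher and not called under median scaling. Rdh11 was higher by 0.27 ± 0.12 (SE, limma adjusted p = 0.046), a call that was lost without any one of the untreated or retinoic acid arrays (0.21 to 0.28, adjusted p = 0.061 to 0.12). Adh1 and Adh7 were not called (0.24 and −0.01, limma adjusted p = 0.21 and 0.94), but Adh1 passed without retinoic acid replicate 2 of batch 2 (0.37, adjusted p = 0.049), and both were called higher under median scaling (0.82 and 0.90). A difference between batches was common over all probes, with 33.4% called higher and 42.9% called lower in batch 2.

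Other genes of retinoid metabolism were described from lists of their roles. Among 19 other retinol and retinal oxidoreductases, 16 had a probe and 6 were tested, of which 4 rose and 2 fell with retinoic acid and 1 rose and 1 fell with IL-1α. Dhrs3, a retinal reductase induced by retinoic acid, rose with retinoic acid to a mean of 6.75 (limma adjusted p = 8.2e-07), and Rdh9 rose to 6.05 with retinoic acid and 5.60 with IL-1α (adjusted p = 1.2e-05 and 0.0015). Both were detected on only 1 of 4 untreated arrays, at means of 5.00 and 4.94, so no exact fold is given. Dhrs9, a retinol dehydrogenase of the short-chain family, fell from 7.20 untreated to 6.63 with IL-1α and 5.50 with retinoic acid, where 2 of 4 arrays detected it (adjusted p = 0.027 and 7.6e-06). The median difference with retinoic acid was 0.56 over these 6 genes and 0.02 over all probes.
Of 19 genes of retinoid supply, binding and breakdown, 8 were tested, and 5 rose and 2 fell with retinoic acid. Cyp26b1, a retinoic acid hydroxylase, rose by 3.94 (limma adjusted p = 6.1e-10), and Stra6, the retinol uptake receptor, was at least 2.15-fold higher. Rbp4, the carrier of retinol in blood, fell by 1.75 with retinoic acid and by 1.24 with IL-1α (adjusted p = 7.6e-05 and 0.0018), each time with 3 of 4 treated arrays detecting it. With IL-1α, 2 genes of this list rose and 1 fell, the rises being Cyp26b1 and Dgat1 at 0.59 and 0.77 (adjusted p = 0.0066 and 0.00056).
Of the 6 retinoic acid and retinoid X receptors, 4 were tested, and with retinoic acid Rarb rose (limma adjusted p = 7.6e-05) and Rxra fell by 0.57 (adjusted p = 0.037). Rarb was detected on 4 retinoic acid arrays, at a mean of 7.66, and on 1 of 4 untreated arrays, at 4.74, so its fold is not exact. With IL-1α, Rxrb rose by 0.46 (adjusted p = 0.017).
Aldehyde dehydrogenases outside the synthesis list, which handle other aldehydes, had 9 of 15 genes tested, with 2 that rose and 5 that fell with retinoic acid and a median difference of −0.40. Aldh6a1 and Aldh1l2, both mitochondrial enzymes, had differences of −2.003 and −1.76 (limma adjusted p = 1.0e-07 and 6.1e-06), and Aldh6a1 was detected on only 2 of 4 retinoic acid arrays. With IL-1α, 2 rose and 1 fell. Aldh3a1, which clears aldehydes from lipid peroxidation, fell by 1.30 with retinoic acid and rose by 1.10 with IL-1α (adjusted p = 0.00028 and 0.0016).

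**Figure D5:**
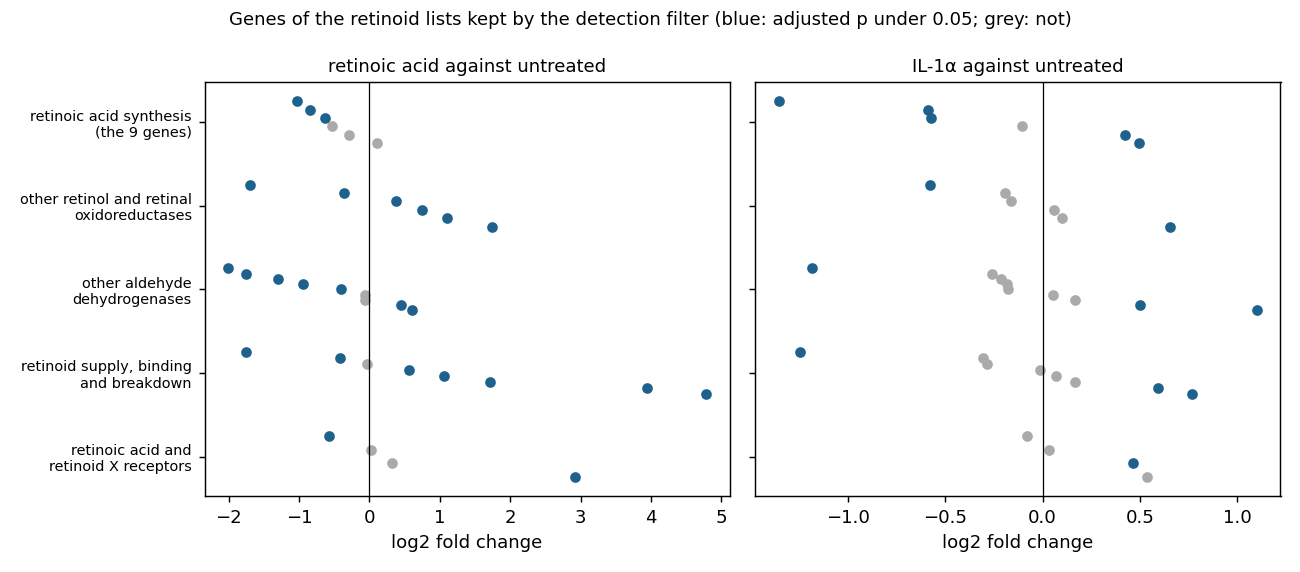
Log2 fold changes (horizontal axes, with a different range in each panel) of the tested genes of each retinoid list (rows), 1 point per gene, blue where the adjusted p was under 0.05, for retinoic acid and IL-1α against untreated. With retinoic acid 3 of 6 tested synthesis genes fell and 0 rose, where 17.1% of all probes were called lower and 18.2% higher.

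Cell type markers also moved with treatment. The summed intensity of 8 chondrocyte markers, of which Matn3 was undetected, was 53018 to 63390 on untreated arrays, 32999 to 43250 with IL-1α and 9790 to 14990 with retinoic acid, and 7 of 7 tested fell with retinoic acid and 5 of 7 with IL-1α. The sum of 5 osteoblast markers, with Dmp1 undetected, was 7480 to 8930 untreated, 1483 to 3713 with IL-1α and 1817 to 2014 with retinoic acid. For 6 endothelial markers it was 1858 to 2388 untreated, 882 to 1239 with IL-1α and 2054 to 2405 with retinoic acid, and for 5 adipocyte markers, with Plin and Fabp4 undetected, 938 to 1424, 204 to 476 and 257 to 322. The sums of 8 blood cell markers, with Ptprc undetected, of 7 fibroblast markers and of 5 muscle markers, with Ckm undetected, were 31512 to 34889, 14421 to 17193 and 142 to 348 untreated. They were 35740 to 48266, 14616 to 16089 and 78.9 to 132 with IL-1α, and 25716 to 42891, 11255 to 16307 and 81.9 to 150 with retinoic acid. A sum is weighted to its brightest genes, and of the 7 fibroblast markers 5 fell and 1 rose with IL-1α, and 4 fell and 2 rose with retinoic acid. The part of these markers in the values of Adh1, Adh7, Rdh5 and Aldh1a3 was not tested.

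The probes most like the 3 genes with the largest called differences in the pooled fit were listed by Pearson correlation over the 12 arrays after each batch was centred, which shared treatments and normalization. Rdh5 was most like Car5b, a mitochondrial carbonic anhydrase (r = 0.992), Ddr1, a collagen receptor (0.989), and Dgat2, an enzyme of triglyceride synthesis (0.986), which had differences of −1.36, −1.10 and −1.35 with retinoic acid and 0.52, 0.57 and 0.60 with IL-1α. Adh1 was most like Akp2, an alkaline phosphatase (r = 0.955), Eif3j (0.947) and C330008K14Rik (0.946). Akp2 had a difference of −1.74 with IL-1α and −0.72 with retinoic acid. For Aldh1a3, Zfp108 (r = 0.943) and Col3a1, the type III collagen chain (0.942), were among the most alike, and Col3a1 had differences of −0.98 with retinoic acid and −1.04 with IL-1α.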

How the data were processed

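RNA from 12 cartilage cultures, 4 per treatment, was measured on Illumina mouse bead arrays. The authors deposited 1 table of raw probe intensities without background subtraction or normalization. The authors also deposited a detection score per probe and array, which rises with intensity, so the detection p was taken as 1 minus that score. Which software produced the probe values is not given in the sources used here. In R 4.3.3 with limma 3.58.1, intensities were background-corrected and quantile-normalized by neqc (offset 16), which compresses differences of dim probes. Detection (p under 0.05) was required on at least 4 of 12 arrays, which left 18200 of 46632 probes. The model had treatment and, as the methods state, batch with replicate (4 levels), and was fitted with lmFit and eBayes. Differences of effects between batches were tested with 6 group means and no replicate term. P-values were adjusted over all 18200 probes by the Benjamini-Hochberg method. Exact two-sided permutation tests over arrays cannot go below 0.0286 for 4 against 4. They shuffle arrays across batches, so their p is not comparable with that of the fit where batches differ in level. The functions were tested on simulated data. The 9 genes, the lists and the alternatives (background correction, scaling, offset, filter, block, batch and each array left out) were chosen with earlier results of these data known. All probes of the 9 genes are named. From other lists, genes with an adjusted p under 0.05 and a difference of at least 1 on the log2 scale against untreated are named, as are the treatment checks, but some genes these rules name are not reported here. Dgat1, Rxra and Rxrb were named after their values were seen. Promoters are from RefSeq on GRCm38.p6, and the number of arrays limits the precision.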

Additional observations from a re-analysis of the deposited data

Results flagged for a closer look

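The effect of retinoic acid against untreated on Adh1 differed between batch 2 and batch 1 by −1.16 on the log2 scale, and that of retinoic acid against IL-1α by −1.19 (limma adjusted p = 0.013 and 0.0061, 2 arrays per group). The effect of IL-1α against untreated on Aldh1a3 gave −1.14 (limma adjusted p = 0.0083), but the probe was below detection on all batch 1 arrays, so this is no measured difference between batches. Aldh1a1 and Aldh1a2, left out of the comparisons by the detection filter, were detected on both retinoic acid arrays of batch 2, with mean log2 intensities of 5.89 and 5.17. A search for an array apart from its group flagged none in the 18 groups of 4 arrays. Each group pools both batches, so the search could hardly flag an array where the batches differ in level.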

How the results depend on the processing

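The filter of detection on at least 2 arrays is left out of the counts of genes called. It adds Aldh1a1 and Aldh1a2, which pass it mainly through the retinoic acid arrays of batch 2, where their values were highest in that batch. The number of synthesis genes called with retinoic acid against untreated, 3, was 2 to 4 under every other alternative. Rdh5 was called in all alternatives for retinoic acid against untreated and against IL-1α. For IL-1α against untreated the number was 5 of 6 tested, and fell to 3 under median scaling and 2 within batch 2 alone. It fell to 1 without batch and block (Adh1) and was 3 to 5 with one array left out. The filters changed which probes were tested. The number was 3 of 3 with detection required on all 12 arrays, 3 of 4 at a detection p under 0.01 and 2 of 13 probes without a filter. Over all probes these filters gave 4053 calls of 11215, 4805 of 13681 and 4247 of 46632. For retinoic acid against IL-1α the number went from 2 to 1 with normalization within each batch, without batch and block and within batch 2 alone. It went to 4 within batch 1 alone and was 1 to 2 with one array left out. Both stricter filters removed Adh1 from the test and left 1, Rdh5. With no filter Adh1 lost its call in this comparison. The number, still 2, then counted Aldh1a1, which was undetected on all 4 IL-1α arrays, so that call is not read as a result. The number of genes whose effect differed between batches went from 2 to 0 with both stricter filters, which remove Adh1 and Aldh1a3, to 3 with no background correction, median scaling, normalization within each batch or an offset of 50, and was 2 to 3 with one array left out. For batch 2 against batch 1 the number, 4 of 6 tested, was 5 under median scaling and 3 to 4 with one array left out. It was 2 of 3 tested with detection on all 12 arrays and 3 of 4 tested at a detection p under 0.01. Values that reversed were, under median scaling, Rdh10 and Adh7 in retinoic acid against IL-1α (0.0086 and 0.0767) and Rdh5 and Adh7 in batch 2 against batch 1 (0.20 and 0.90). Within batch 1 alone they were Adh1 in retinoic acid against untreated (0.0545), Rdh10 in IL-1α against untreated (0.0546) and Adh7 in retinoic acid against IL-1α (0.19). With one array left out, Adh7 in batch 2 against batch 1 ran from −0.0713 to 0.0777, Adh7 in retinoic acid against IL-1α from −0.154 to 0.0787 and Rdh10 in IL-1α against untreated from −0.179 to 0.0672. Except for the filters, the cause was not tested. Over all probes, the calls for IL-1α against untreated went from 5334 to 3104 under median scaling, 2973 within batch 2 alone and 1327 without batch and block. Without batch and block they went from 6436 to 2215 for retinoic acid against untreated and from 5656 to 1984 for retinoic acid against IL-1α. Taking the replicate block out, with batch kept, left the counts at 3, 5 and 2 and changed no call, and adding it to the test between batches left 2. Same-numbered arrays did not all deviate together (correlations of deviations 0.0027 to 0.062 in batch 1 and −0.11 to 0.39 in batch 2), so the numbers were not shown to pair them. Of 583 single-gene values recomputed, 508 kept direction and side of the threshold, 53 lost their call, 7 gained one and 15 reversed. Many could not reverse, since the filters, the block and arrays of the third treatment leave a difference unchanged. Genes that were never called count as kept. Dim signals limit Aldh1a3, Rdh10 and the untested genes.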
